A study of Mus musculus with 89 samples.

Results

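The splicing factor and hnRNP genes of the mouse jejunum were followed along the crypt to villus axis and across the cell types of the epithelium. The set held 50 genes of the 27538 in the table of clumps and the 23379 in the table of single cells, taken by symbol from 4 families with pseudogene rows left out. It held 11 Srsf genes, 11 Snrp genes, 9 Sf3a and Sf3b genes and 19 Hnrnp genes. All 50 were present in both tables. Introns are removed from newly made transcripts in the nucleus by the spliceosome, which is built from small nuclear ribonucleoproteins (snRNPs). The Snrp genes encode the Sm proteins, which form a ring on the spliceosomal small nuclear RNAs, and proteins that belong to the U1 or U2 snRNP alone. The Sf3a and Sf3b genes encode the complexes with which the U2 snRNP holds the intron's branch site, the Srsf genes the serine and arginine rich (SR) proteins that help define exons, and the Hnrnp genes proteins that coat nascent RNA and often oppose exon use. In the intestine, cells divide in the crypt, move up the villus as they mature, and are shed at its tip.

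The epithelium came from jejunum of male C57BL/6 mice on regular chow, labelled 3 months old and with no other treatment, and was loosened in EDTA without enzymes. One protocol, shaken once at its end, left clumps of attached cells, which were sorted by DNA content into pairs (4n, mice 1 to 5) and larger clumps (above 4n, mice 1, 4 and 5), and another, with smaller pieces and repeated shaking, gave single cells from 4 mice. Clumps above 2n from a mouse 6 stayed out of the main comparisons. The mice are numbered apart in the clump and cell tables, and 3 plates of single cells of mouse 2 are labelled 4 months. Each well of a plate was sequenced by MARS-seq, which counts molecules by unique molecular identifiers (UMIs) at the 3′ end of the mRNA. One tag per molecule needs no scaling by gene length, so levels may be set side by side between genes, but isoforms of 1 gene cannot be told apart. Levels are given in CPM, which is the UMIs of a gene scaled to a common total of UMIs in each set of summed wells. Reads that match a processed pseudogene of an Snrp or Hnrnp gene as well as the gene itself may have been split by the counting, so the levels of those genes are uncertain to that extent.

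The promoters of 5 members that stand at the ends of the results below are shown for orientation: the 3 members that were lowest at the villus tip against the crypt, and the 2 called higher at the tip in at least 1 comparison. Each window is 300 bases of RefSeq sequence (GRCm38.p6), from 250 bases before the annotated start to 50 after it, written 5′ to 3′ on the gene's strand. Capitals mark CCAAT and CCGGAAG, the letters bound by the NF-Y and ETS families of transcription factors, or their reverse complements ATTGG and CTTCCGG. Snrpf encodes the Sm protein F, and its window is chr10:93589609-93589908 on the minus strand. Snrpg encodes the Sm protein G, at chr6:86371290-86371589 on the plus strand. Hnrnpa1 encodes a protein that silences exons, at chr15:103240147-103240446 on the plus strand. Srsf5 encodes an SR protein, at chr12:80945249-80945548 on the plus strand. Srsf11 encodes another SR protein and has 2 RefSeq starts, of which the window at chr3:158036557-158036856 on the minus strand is shown.
Snrpf: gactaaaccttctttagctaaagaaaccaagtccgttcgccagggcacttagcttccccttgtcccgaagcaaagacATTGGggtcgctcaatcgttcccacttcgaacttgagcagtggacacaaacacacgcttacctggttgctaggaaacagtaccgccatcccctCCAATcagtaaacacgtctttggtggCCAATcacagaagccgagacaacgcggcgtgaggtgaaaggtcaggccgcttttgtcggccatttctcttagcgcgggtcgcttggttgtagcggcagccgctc
Snrpg: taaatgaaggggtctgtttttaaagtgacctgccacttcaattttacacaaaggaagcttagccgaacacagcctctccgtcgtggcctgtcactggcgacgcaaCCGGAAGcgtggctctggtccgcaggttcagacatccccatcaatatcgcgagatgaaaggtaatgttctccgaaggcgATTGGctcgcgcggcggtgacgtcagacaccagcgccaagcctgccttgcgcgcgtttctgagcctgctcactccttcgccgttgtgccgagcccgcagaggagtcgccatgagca
Hnrnpa1: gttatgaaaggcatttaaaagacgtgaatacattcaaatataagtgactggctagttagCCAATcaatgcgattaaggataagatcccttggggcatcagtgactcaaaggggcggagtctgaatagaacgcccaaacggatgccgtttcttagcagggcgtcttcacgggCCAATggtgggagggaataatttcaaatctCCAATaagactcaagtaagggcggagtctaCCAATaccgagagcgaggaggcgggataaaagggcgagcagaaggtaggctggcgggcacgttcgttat
Srsf5: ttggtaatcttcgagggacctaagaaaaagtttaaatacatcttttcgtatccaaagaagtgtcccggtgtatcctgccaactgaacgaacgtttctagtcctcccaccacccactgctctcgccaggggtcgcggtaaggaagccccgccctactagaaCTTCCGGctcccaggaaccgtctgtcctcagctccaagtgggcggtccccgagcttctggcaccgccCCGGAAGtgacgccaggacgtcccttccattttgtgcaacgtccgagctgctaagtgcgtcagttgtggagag
Srsf11: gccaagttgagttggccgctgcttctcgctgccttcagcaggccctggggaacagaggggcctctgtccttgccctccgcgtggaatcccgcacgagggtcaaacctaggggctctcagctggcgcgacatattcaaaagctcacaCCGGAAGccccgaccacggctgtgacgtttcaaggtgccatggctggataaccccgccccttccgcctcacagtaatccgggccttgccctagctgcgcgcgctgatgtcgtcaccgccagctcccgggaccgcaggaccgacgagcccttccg

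Both promoters of the Sm proteins hold a CCAAT box in one direction or the other, with matches that begin 173, 80 and 54 bases before the start in Snrpf and 66 bases before it in Snrpg. Hnrnpa1 holds 4, the nearest 19 bases before the start. Snrpg also holds CCGGAAG, 145 bases before the start. The windows of Srsf5 and Srsf11 hold no CCAAT but CCGGAAG or its reverse, at 90 and 23 bases before the start in Srsf5 and at 104 in Srsf11. Of the 50 members, 44 were found in the RefSeq promoter table, with 58 windows. CCAAT on either strand stood in 46.6% of these and in 37.4% of all 32851 windows of that length, CCGGAAG in 36.2% and 8.86%. The E-box CACGTG stood in 12.1% and 7.15%, and TATAAA in 10.3% and 13.6%. Among the 30 members with a window that were lower at the villus tip, 17 held CCAAT and 11 CCGGAAG, and among all 44 it was 22 and 16. A match describes the letters in these windows and nothing more.

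Of the 17162 deposited clump wells, 5883 passed the filters and were given a zone by landmark genes of enterocytes, the absorptive cells of the epithelium: 3251 were crypt clumps, 1821 mid-villus clumps and 811 villus tip clumps. Clump size went with zone, since larger clumps made up 2152 of the crypt, 379 of the mid-villus and 114 of the tip clumps. The counts were summed per mouse and zone, with the mouse as the replicate, and the sums ranged from 76801 UMIs (tip, mouse 5) to 18868631 (crypt, mouse 4). A single UMI is worth 13.0 CPM in the shallowest sum, and a zoned clump held a median of 6 UMIs of all members together. Differences between these sums were tested by the quasi-likelihood method of edgeR, with landmark genes left out, and called where the p adjusted by Benjamini-Hochberg over all genes was under 0.05. Sums of 2 mice stood apart. Mitochondrial UMIs made up 18.6% to 21.2% of the sums of mouse 5 and 4.38% to 10.4% of the others, and 65.8% of the 38 tip clumps of mouse 4 held a UMI of a list of 18 genes of dividing cells, against 5.15% to 15.8% in the tip clumps of the other mice.

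The splicing and hnRNP genes were lower at the villus tip than in the crypt. Summed over the 50 members, the level was 4087, 3962, 4319, 5734 and 2755 CPM in the crypt clumps of mice 1 to 5 and 1543, 1095, 1498, 2028 and 755 CPM in their tip clumps. Every tip value lay below every crypt value, and the means of 4171 ± 1063 and 1384 ± 483 CPM (SD, n = 5 mice) differed 3.01-fold, by 2.65-fold to 3.65-fold within a mouse. The Snrp family fell most in these sums, from 942 ± 226 to 162 ± 106 CPM (5.82-fold), followed by the Hnrnp family from 1932 ± 550 to 647 ± 233 (2.99-fold), the Srsf family from 789.8 ± 183 to 327 ± 111 (2.41-fold), and the Sf3a and Sf3b genes from 508 ± 121 to 247 ± 101 (2.05-fold). This order of crypt over tip held for each family in 5 of 5 mice. In clumps, fewer cells of a kind and less RNA of these genes per cell cannot be told apart.

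**Figure D1:**
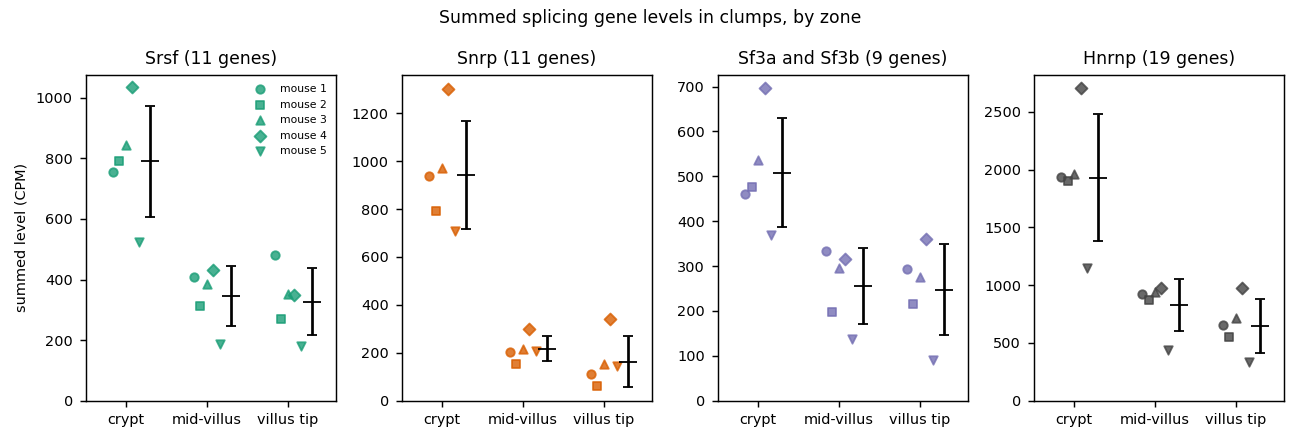
Summed level of each gene family (CPM, linear axis from 0) in crypt, mid-villus and villus tip clumps, with a symbol for each of 5 mice and the mean ± SD beside them in black. The 5 crypt sums of the Snrp family sit between 710 and 1299 CPM and the 5 tip sums between 61.2 and 341 CPM.

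By the test per gene, 35 of the 48 members tested were lower at the tip, 1 was higher and 12 were not called. With the mouse as a block, since zones of 1 animal share it, 40 were lower, 2 higher and 6 not called: Hnrnpc, Hnrnpr, Hnrnpul1, Sf3b6 and Snrpa were then lower and Srsf11 higher. Over all 6984 genes tested, 29.8% were lower and 24.5% higher. The median log2 change of the members was -1.59 and that of all genes -0.07. Called lower were 10 of 11 Snrp genes, 7 of 10 Srsf genes, 6 of 9 Sf3a and Sf3b genes and 12 of 18 Hnrnp genes, with median log2 changes of -2.29, -1.22, -1.98 and -1.29. For 24 members every tip sum lay below every crypt sum, a separation seen in 22.3% of all genes tested. Srsf12 (a single UMI in all zones) and Hnrnph2 (7.64 CPM in the crypt and 1.51 at the tip) had too few UMIs for the test. The fit scales each sum by a TMM factor, which ran from 0.826 to 1.28 in the crypt and from 0.782 to 1.02 at the tip, so its log2 changes lie above those of the CPM. Scaled by total UMIs alone, a choice made after the data were seen, 40 members were lower and none higher, with a median of -1.96 against -0.46 over all genes. The share of higher among all calls was 45.2% with TMM, 33.6% with DESeq2's size factors and 30.6% with total UMIs.

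Among the Sm proteins and their partners the differences were largest. Snrpf stood at 117, 92.0, 112, 182 and 63.5 CPM in the crypt clumps of mice 1 to 5 and at 0, 0, 7.92, 18.95 and 0 CPM in their tip clumps, where 8 UMIs were counted in all. No tip value came near a crypt value, and the log2 change was -4.16 (SE 0.58, adjusted p = 7.03e-06, edgeR). Snrpg, another gene of the Sm ring, was the most abundant member of the family, with crypt values of 165, 85.7, 164, 190 and 196 CPM. At the tip it stood at 9.19, 0, 9.24, 37.9 and 0 CPM, and the value of mouse 4 was the highest by far (log2 change -3.90, SE 0.54, adjusted p = 6.97e-06). Snrpd2, which encodes the Sm protein D2, went from 125, 158, 140, 174 and 46.2 CPM to 18.4, 14.7, 11.9, 28.4 and 0 CPM, and again the zones did not overlap (log2 change -2.76, SE 0.42). Snrpe, the Sm protein E, fell from 122 ± 37.2 to 17.9 ± 13.2 CPM (log2 change -2.55, SE 0.37), with its lowest crypt value, 57.7 CPM, in mouse 5. Snrpa1 belongs to the U2 snRNP and fell from 30.6 ± 10.2 to 3.02 ± 6.04 CPM, where the tip mean rests on 4 UMIs, 3 of them in mouse 1 (log2 change -3.18, SE 0.61). The genes Snrpb, Snrpd1 and Snrpd3 of the other Sm proteins and Snrpb2 and Snrpc of the U2 and U1 snRNPs were lower as well, by -1.16 to -2.29. Snrpa, which encodes a U1 protein, was at 40.7 ± 14.5 CPM in the crypt and 14.6 ± 10.7 CPM at the tip and was the one Snrp gene not called (log2 change -1.18, SE 0.52, adjusted p = 0.0629, and 0.0248 with the block).

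The Sf3a and Sf3b genes differed among themselves. Sf3b3, a scaffold subunit of SF3B, stood at 28.2, 36.5, 38.5, 69.4 and 34.6 CPM in crypt clumps and at 0, 2.45, 2.64, 28.4 and 0 CPM at the tip. Its tip value in mouse 4, whose tip clumps often held UMIs of the dividing list, just overlapped the lowest crypt value (log2 change -3.01, SE 0.62, adjusted p = 0.000446). The genes Sf3a1, Sf3a2 and Sf3a3 of the SF3A complex and Sf3b4 and Sf3b5 were also lower, by -1.47 to -2.28. Sf3b6, a small subunit at the branch site, lay between these and the rest, at 81.6 ± 25.7 CPM in the crypt and 41.9 ± 31.1 CPM at the tip, and was not called (log2 change -0.70, SE 0.34, adjusted p = 0.088, and 0.0196 with the block). The most abundant genes of the family were not called either. Sf3b1, the subunit that grips the branch site, stood at 91.0, 116, 125, 119 and 57.7 CPM in the crypt and at 119, 78.4, 119, 56.9 and 13.0 CPM at the tip, with overlapping values and a log2 change of 0.12 (SE 0.35, adjusted p = 0.806). Sf3b2, its partner at the branch site, stood at 92.1 ± 42.2 and 82.8 ± 33.3 CPM (log2 change 0.23, SE 0.31, adjusted p = 0.55). With total-UMI scaling these changes were -0.28 and -0.16, again not called.

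Among the SR proteins, 7 of the 10 tested were lower at the tip, and Srsf4, Srsf5 and Srsf11 were not. Srsf3, the smallest SR protein, stood at 173, 149, 185, 252 and 141 CPM in the crypt and at 45.9, 22.04, 21.1, 28.4 and 39.1 CPM at the tip, with no overlap (log2 change -2.29, SE 0.36, adjusted p = 2.67e-05). Srsf2, which marks nuclear speckles, went from 134 ± 38.9 to 42.9 ± 39.2 CPM, and its highest tip value, 106 CPM in mouse 1, overlapped the crypt (log2 change -1.12, SE 0.37, adjusted p = 0.0136). Srsf1, Srsf6, Srsf7, Srsf9 and Srsf10 were lower by -1.08 (Srsf6) to -2.002 (Srsf1). Srsf4, the least abundant of these 3, stood at 17.6 ± 3.34 and 12.3 ± 9.99 CPM (-0.68, SE 0.58, adjusted p = 0.334). Srsf5 was the one member called higher. Its values were 60.8, 65.5, 48.5, 95.3 and 34.6 CPM in the crypt and 124, 66.1, 84.4, 104 and 39.1 CPM at the tip, higher at the tip in 5 of 5 mice but with overlapping zones (log2 change 0.82, SE 0.27, adjusted p = 0.0139). The call was lost in 13 of 18 alternatives, among them both other scalings and the fits without the tip sum of mouse 4 (0.61) or without mouse 1 (0.61), 2 (0.67) or 3 (0.58). Srsf11 stood at 59.2, 84.4, 92.8, 60.2 and 37.5 CPM in the crypt and at 91.9, 100.4, 106, 18.95 and 52.1 CPM at the tip. It was higher at the tip in mice 1, 2, 3 and 5 and lower in mouse 4, and was not called (log2 change 0.68, SE 0.35, adjusted p = 0.106, and 0.0221 with the block).

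Of the hnRNP genes, Hnrnpa1 differed most. It stood at 114, 73.1, 83.8, 93.1 and 17.3 CPM in the crypt and at 4.59, 2.45, 7.92, 18.95 and 0 CPM at the tip, where the value of mouse 4 passed the crypt value of mouse 5 (log2 change -3.23, SE 0.49, adjusted p = 1.93e-05). Hnrnpa2b1, a nuclear RNA binding protein that also takes part in RNA transport, was the most abundant member in the crypt at 284, 347, 317, 525 and 202 CPM. At the tip it stood at 91.9, 61.2, 80.5, 180.1 and 0 CPM, below the crypt in every mouse and without overlap (log2 change -1.68, SE 0.39, adjusted p = 0.00125). Hnrnpab, a close relative, was at 323 ± 117 CPM in the crypt and kept 114 ± 69.6 CPM at the tip (log2 change -1.29, SE 0.35, adjusted p = 0.00395). Hnrnpa0, Hnrnpa3, Hnrnpd, Hnrnpf, Hnrnph1, Hnrnpk, Hnrnpl, Hnrnpll and Hnrnpm were lower by -0.96 to -1.90. Not called were Hnrnpc, which binds uridine tracts in introns, at 127 ± 40.04 and 61.7 ± 29.996 CPM (adjusted p = 0.149, and 0.0428 with the block), and Hnrnph3, Hnrnpr, Hnrnpul1, Hnrnpul2 and Hnrnpdl. Hnrnpul2 and Hnrnpdl had the log2 changes closest to 0, at 0.17 (SE 0.28) and 0.03 (SE 0.40).

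**Figure D2:**
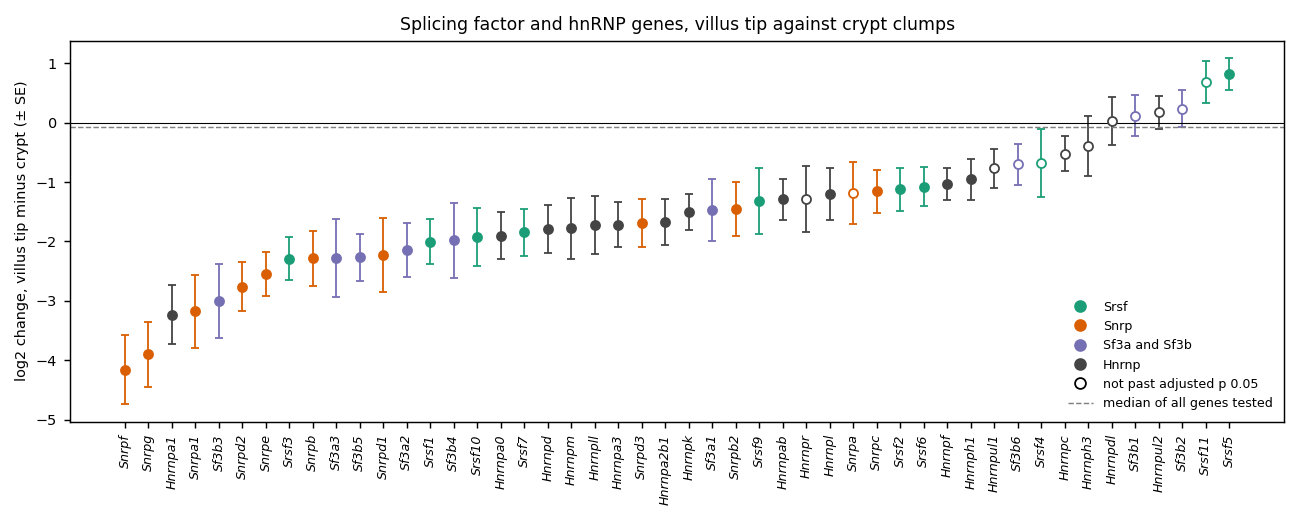
Log2 change of each of the 48 tested members, villus tip minus crypt clumps, with SE bars, ordered by size and colored by family, and open symbols for members not past the threshold. The changes run from -4.16 (Snrpf) to 0.82 (Srsf5), and the dashed line is the median of all genes tested, -0.07.

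Other contents of the clumps moved along the same axis, and their part in these differences was not tested beyond what follows. The list of 18 dividing-cell genes summed to 788 to 1969 CPM in the crypt and 53.9 to 540.2 CPM at the tip, and 16 of its 16 tested genes were lower at the tip. When crypt clumps with any UMI of that list were left out, 17 members were lower and 1 was higher of 36 tested. This filter took out 54.0% to 85.8% of the crypt clumps of a mouse and left all tip clumps in. A deeper clump is also more likely to hold such a UMI, so the part of dividing cells alone was not tested. The summed level of all members then differed by -0.91 on the log2 scale in place of -1.59. The Snrp sum then differed by -1.70, the Hnrnp sum by -0.92, the Srsf sum by -0.65 and the Sf3 sum by -0.46. The 11 Paneth cell genes ranged from 93.2 to 18187 CPM in the crypt and from 142 to 1185 CPM at the tip, the 12 goblet cell genes from 3182 to 6017 and from 7266 to 35322 CPM, and the 16 immune genes from 1.59 to 421 and from 0 to 52.1 CPM. With clumps of 3 or more secretory, Paneth or immune UMIs left out, 23 of the 26 members still tested among the 35 remained lower. RNAs that are kept in the nucleus (Malat1, Neat1 and 2 others) went the other way, from 202 to 1060 CPM in the crypt and from 1966 to 9238 CPM at the tip.

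Most of the difference from the crypt was already present in the mid-villus. Against crypt clumps, 31 of 48 members were lower in mid-villus clumps and none was higher (background 22.4% lower and 19.9% higher), with a median log2 change of -1.13 against 0.06 over all genes. With the mouse as a block, 40 were lower and 8 not called. Separated sums were seen for 21 members, against 17.1% of all genes. Snrpg stood at 15.8, 7.89, 18.4, 18.1 and 20.3 CPM in the mid-villus, far below every crypt value given above (log2 change -3.28, SE 0.43, adjusted p = 9.49e-06). Snrpf was at 11.4 ± 9.11 CPM (-3.10, SE 0.42), Snrpd1, the Sm protein D1, fell from 76.7 ± 35.0 to 9.26 ± 8.35 CPM (-2.82, SE 0.51), and Snrpd2 was at 22.4 ± 14.6 CPM (-2.31, SE 0.34). Summed over all members the mid-villus held 1646 ± 417 CPM, 2.53-fold less than the crypt. Between tip and mid-villus clumps, the same sums as above, the fit called 1 member higher and none lower (background 6.44% higher and 8.02% lower). At an unadjusted p under 0.05 it was 2 higher and none lower, and DESeq2 called 1 higher and none lower. With zones set by quintiles of eta (defined below), where the middle quintile stood for the mid-villus, none was higher and 22 of 47 were lower. That quintile is another group of clumps, with a mean Snrp sum of 430 CPM against 217 CPM in the landmark mid-villus. In the landmark zones, every tip sum lay below every mid-villus sum for 1 member, against 5.97% of all genes. The called member was Srsf11, at 52.0, 41.7, 57.2, 32.6 and 5.07 CPM in the mid-villus (log2 change 1.24, SE 0.36, adjusted p = 0.0257). It was higher at the tip in mice 1, 2, 3 and 5 and lower in mouse 4, and the call was lost without mouse 1, 2 or 3 and with total-UMI scaling. With the mouse as a block, 5 members were called, with Srsf11, Sf3b1, Sf3b2 and Srsf5 higher and Srsf3 lower.

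A finer view came from eta, the share of a clump's villus tip landmarks in the sum of its tip and crypt landmarks, which was cut into quintiles of clumps at 0.0352, 0.114, 0.444 and 0.867. The summed members declined in each step and each mouse. In mouse 1 they stood at 5206, 3783, 2519, 1764 and 1444 CPM from the crypt end to the tip end. Mouse 5, the shallowest, ran lower throughout, from 3471 to 666 CPM, and mouse 4 from 6879 to 1679 CPM. The Snrp family fell from a mean of 1449 CPM in the first quintile through 1003, 430.1 and 215 to 131 CPM in the last, with a rise from 835 to 930.1 CPM between the first quintiles of mouse 5. The Sf3a and Sf3b genes stood at 675, 517, 335, 257 and 248 CPM on average, and rose from the fourth to the last quintile in mouse 2 (181 to 226 CPM) and mouse 4 (307 to 357 CPM).

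**Figure D3:**
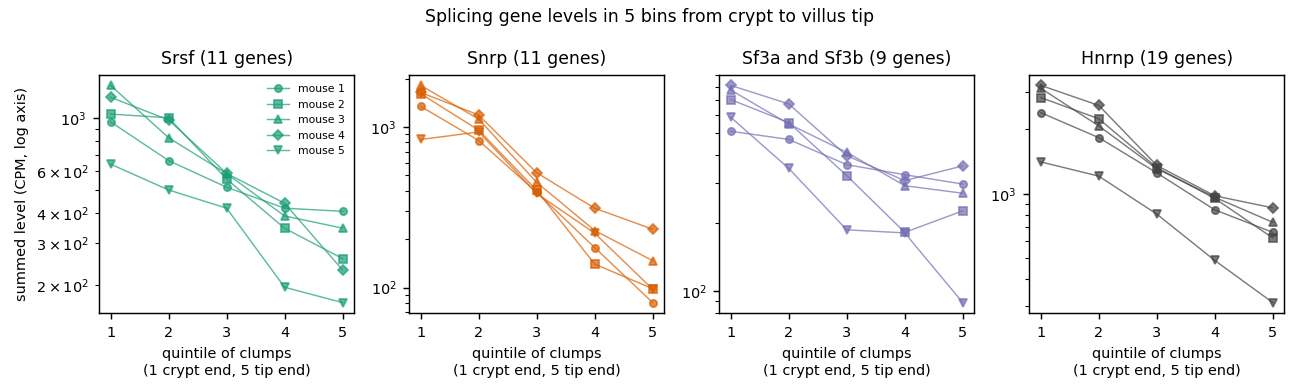
Summed level of each family (CPM, log axis) in 5 quintiles of clumps ordered by eta from the crypt end (1) to the tip end (5), with a line per mouse for 5 mice. The Snrp lines drop from a mean of 1449 CPM in the first quintile to 131 CPM in the last, and the Sf3 lines from 675 to 248 CPM, with a rise in the last step in mice 2 and 4.

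In single enterocyte-like cells most members were again lower at the tip. After filters 5199 cells were kept, and the 2465 of the enterocyte-like cluster (12 of its 50 leading genes on the enterocyte list) were placed by the same landmarks, 2415 of them with a zone. Mouse 1 had too few crypt cells for a sum, so tip sums came from 4 mice and crypt sums from 3. Of the 35 members tested, 21 were lower at the tip and 2 higher (background 29.6% lower and 29.9% higher), with a median log2 change of -1.24 against 0.11 over all genes. For 27 members every tip sum lay below every crypt sum, where 43.1% of all genes did so, and for 1 every tip sum lay above (10.5% of all genes). All 5 tested Snrp genes were lower, 11 of 17 Hnrnp genes, 3 of 6 Sf3a and Sf3b genes and 2 of 7 Srsf genes. Without mouse 3 the counts were 13 lower and 2 higher, and with the mouse as a block Hnrnph1 alone lost its call (adjusted p = 0.095).

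Snrpg was at 30.2, 58.0 and 62.3 CPM in the crypt cells of mice 2, 3 and 4 and at 0.951, 0, 0 and 4.00 CPM in the tip cells of mice 1 to 4 (log2 change -4.10, SE 0.61, adjusted p = 1.21e-05). Snrpd2 was at 22.7, 51.8 and 58.4 CPM in the crypt and between 0.951 and 2.00 CPM at the tip (-3.91, SE 0.56). Both genes were nearly absent from tip cells and never overlapped the crypt. Hnrnpa1 went from 52.6 ± 34.0 CPM (n = 3) to 3.82 ± 1.39 CPM (n = 4), a log2 change of -2.94 (SE 0.48). Snrpb, which encodes the Sm proteins B and B′, went from 46.9 ± 22.2 to 4.42 ± 1.91 CPM (-2.70, SE 0.45). The summed Snrp family stood at 380.4 ± 114 CPM in the crypt and 32.5 ± 15.3 CPM at the tip, and the sum of all members at 2456 ± 420.5 and 734 ± 129 CPM.

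The 2 called increases were less stable. Srsf11 was at 52.9, 49.7 and 46.7 CPM in crypt cells and at 74.2, 61.9, 65.1 and 79.0 CPM in tip cells, without overlap (log2 change 1.499, SE 0.30, adjusted p = 0.000246). With total-UMI scaling its change was 0.51 and not called. Srsf5 was at 45.3, 91.1 and 54.5 CPM in crypt cells and at 49.0, 55.7, 63.2 and 62.0 CPM in tip cells, with a log2 change of 0.69 (SE 0.29, adjusted p = 0.0472). Its call held in 3 of 13 alternatives. It was lost without mouse 1, 2 or 4, and with total-UMI scaling the change was -0.24. These factors ran from 1.24 to 1.48 in crypt cells and from 0.501 to 0.874 in tip cells. Under total-UMI scaling 27 members were lower and none higher, the median of all genes was -0.83, and 18.4% of all calls were higher in place of 50.2%. Divided by the TMM factors, the summed members of single cells differed 1.73-fold and the Snrp sum 6.35-fold, and the Srsf sum 1.02-fold.

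Set side by side, 32 of the 35 members tested in both had the same sign in clumps and in single cells (91.4%, and 88.4% of 4518 genes). Called in both with the same sign were 20 members (57.1%, and 48.4% of genes), and none was called in opposite directions. Spearman's rho of the log2 changes, a description across genes that are not independent replicates, was 0.868 for the members and 0.923 for all genes. Depth differed as well, since the crypt sums of single cells held 132327 to 482727 UMIs and the tip sums 537965 to 2102330. Dividing-list genes stood at 204 to 343 CPM in crypt cells and at 9.51 to 33.5 CPM in tip cells, nuclear RNAs at 835 to 1519 and 4772 to 6322 CPM, and the 16 immune genes at 253 to 475 and 9.04 to 242 CPM, and the part of any of these in the differences was not tested.

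**Figure D4:**
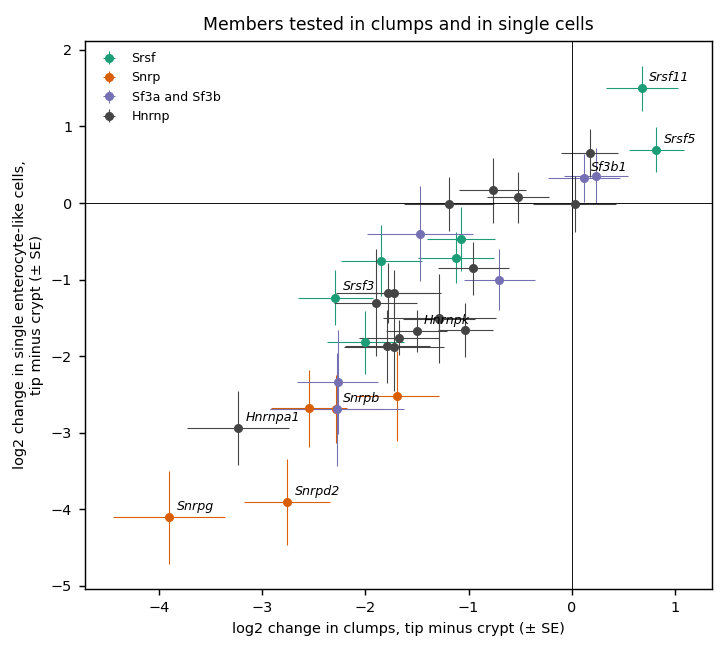
Log2 change (tip minus crypt, ± SE) of the 35 members tested in both tables, in clumps on the x axis and in single enterocyte-like cells on the y axis, colored by family. The Snrp genes lie at the lower left, with Snrpg at -3.90 and -4.10, and Srsf11 at the upper right, at 0.68 and 1.499.

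Across the cell types, the splicing and hnRNP genes were compared between each class of single cells and the enterocyte-like cells, summed per mouse. The level of this reference depends on its mix of zones, with 1390 tip, 717 mid-villus and 308 crypt cells. Its crypt sums held 1995 to 2818 CPM of all members and its tip sums 563 to 874 CPM. The part of this mix in the differences between classes was not tested. The clusters were named from marker lists and may differ from the study's own classes. They held 2465 enterocyte-like, 1689 immune-like, 250 enteroendocrine-like (hormone secreting), 213 goblet-like (mucus secreting) and 185 tuft-like (chemosensory) cells, and 397 cells led by hemoglobin and immunoglobulin genes were left unnamed. Another library went against its class here. The immune-like sum of mouse 1 came from 14 cells and held 268 CPM of the 16 immune genes and 14874 CPM of the enterocyte genes, against 43673 to 51094 CPM of the immune genes in mice 2 to 4. The summed members stood at 589, 986, 1249 and 1195 CPM in the enterocyte-like cells of mice 1 to 4, at 722, 1182, 1746 and 2677 CPM in goblet-like cells and at 1606, 2456 and 2528 CPM in tuft-like cells of mice 1 to 3. Enteroendocrine-like cells held 1867, 2958, 4975 and 3009 CPM, and immune-like cells 960.3, 4422, 4485 and 4734 CPM. In CPM the tuft-like and enteroendocrine-like sums thus lay above every enterocyte-like sum, while the goblet-like and immune-like sums overlapped them. Mouse 2 gave 156 of the tuft-like and 219 of the enteroendocrine-like cells. The other tuft-like sums held 19 and 6 cells and the other enteroendocrine-like sums 10, 13 and 8. In the TMM-scaled fit the median log2 change of the members was 0.02 in tuft-like and 0.52 in enteroendocrine-like cells. Over all genes it was -0.19 and -0.26.

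**Figure D5:**
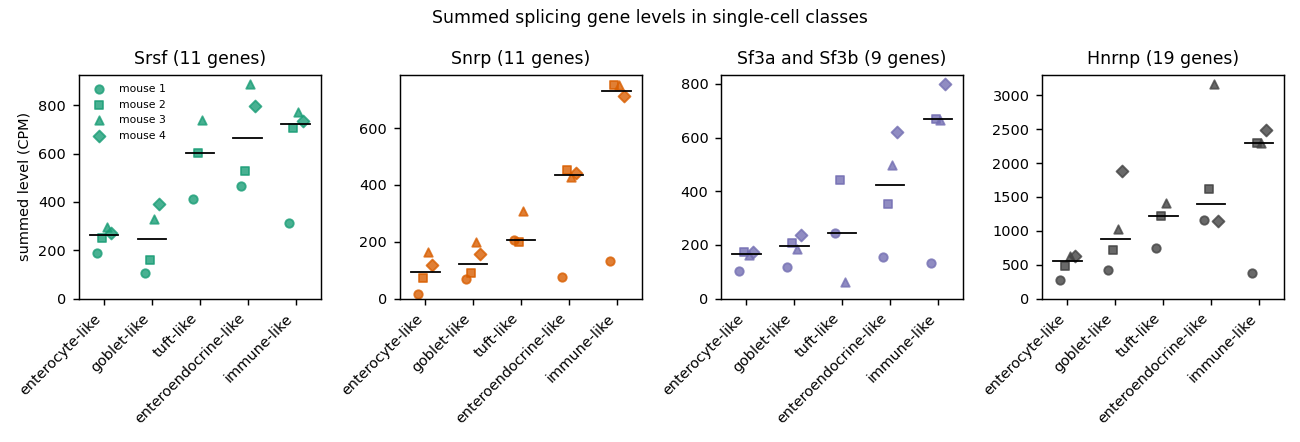
Summed level of each family (CPM, linear axis from 0) in 5 classes of single cells, with a symbol per mouse (4 mice, 3 for tuft-like cells) and a bar at the median. The Snrp sums of immune-like cells sit between 712 and 752 CPM in mice 2 to 4 and at 134 CPM in mouse 1, and those of enterocyte-like cells between 17.6 and 163 CPM.

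Against enterocyte-like cells, 13 of 34 members were higher in immune-like cells and none was lower (background 27.1% higher and 29.5% lower), with a median log2 change of 0.98 against -0.09 over all genes. For 7 members every immune-like sum lay above every enterocyte-like sum, against 11.3% of all genes. The dividing-list genes summed to 290.3 to 618 CPM in immune-like and 15.4 to 106 CPM in enterocyte-like cells, and their part in the difference was not tested. The 13 were 7 of 8 tested Snrp genes, 4 of 15 Hnrnp genes, 2 of 4 Sf3a and Sf3b genes and none of 7 Srsf genes. Snrpg stood at 0, 139, 154 and 133 CPM in the immune-like cells of mice 1 to 4 and at 1.32, 4.88, 18.0 and 12.3 CPM in the enterocyte-like cells. Apart from mouse 1 the classes were far apart (log2 change 2.64, SE 0.51, adjusted p = 5.69e-05). Snrpd1 was at 67.0, 54.9, 46.2 and 46.9 CPM against 0.881, 4.88, 9.73 and 3.74 CPM, with 3 UMIs behind the value of mouse 1 (2.25, SE 0.48). Snrpf stood at 75.7 ± 50.7 and 8.61 ± 8.78 CPM (2.23, SE 0.53) and Snrpb2 at 54.6 ± 8.40 and 6.25 ± 4.79 CPM (2.10, SE 0.46). The count was 23 without the immune-like sum of mouse 1, 33 without mouse 1, 1 of 17 tested without mouse 2, 7 without mouse 4 and 23 with the mouse as a block.

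Fewer members were called in the secretory and tuft-like classes. Every sum of the class lay above every enterocyte-like sum for 8 of 34 members in enteroendocrine-like cells (16.5% of all genes), for 8 in tuft-like cells (23.9%) and for 2 in goblet-like cells (11.8%), shares of members near or below those of all genes in the last 2 classes. In enteroendocrine-like cells only Snrpd2 was called, at 0, 75.9, 71.1 and 266 CPM against 1.32, 9.07, 15.1 and 13.9 CPM (log2 change 1.64, SE 0.58, adjusted p = 0.0261, background 11.1% higher and 22.2% lower). Its enteroendocrine value was 0 in mouse 1, where the sum holds 10 cells. In mouse 3 (13 cells) 1 UMI is worth 35.5 CPM, and in mouse 4 (8 cells) 3 UMIs are worth 266 CPM. The call was lost without mouse 2, 4 members were higher without mouse 1, and 7 were called with the mouse as a block, 4 higher and 3 lower. In goblet-like cells Srsf11 was the one member called, lower at 0, 23.8, 54.9 and 0 CPM against 72.7, 50.2, 46.7 and 60.9 CPM (-2.26, SE 0.66, adjusted p = 0.0111, background 14.7% lower and 6.43% higher). Goblet-like cells were lower in mice 1, 2 and 4 and higher in mouse 3, and the call was lost without mouse 1, 2 or 4 and with total-UMI scaling. In the goblet-like sum of mouse 4 (15 cells) 1 UMI is worth 39.4 CPM. With the mouse as a block, 2 were lower. In tuft-like cells edgeR called no member (background 10.2% higher and 13.5% lower), none was at an unadjusted p under 0.05, and DESeq2 called none. The widest tuft difference was that of Snrpd2, at 1.33 (SE 0.68, adjusted p = 0.177).

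The calls between cell classes moved with the scaling. The TMM factors were 0.220 to 0.704 in enterocyte-like sums, 0.743 to 1.40 in immune-like, 0.956 to 1.82 in tuft-like and 1.24 to 2.25 in enteroendocrine-like ones. With total UMIs alone, 31 members were higher in immune-like cells, 21 in enteroendocrine-like, 3 in tuft-like and none in goblet-like cells, and none was lower in any of them. The median log2 change of all genes then moved from -0.09 to 1.17 for immune-like, from -0.26 to 1.20 for enteroendocrine-like, from -0.19 to 0.94 for tuft-like and from -0.39 to 0.41 for goblet-like cells. The share of higher among the calls of all genes then rose from 47.8% to 76.6%, from 33.3% to 82.9%, from 42.9% to 76.9% and from 30.5% to 62.4%. Mitochondrial UMIs made up 30.4% to 33.1% of the enterocyte-like sums, 9.43% to 19.7% of the enteroendocrine-like and 11.5% to 12.5% of the immune-like sums of mice 2 to 4, and the part of this in the differences was not tested.

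In the rest of the splicing machinery, genes were called in both directions. Of 84 other spliceosome genes 67 could be tested in clumps, and 29 fell and 6 rose from crypt to tip, with a median log2 change of -0.92. These are 43.3% and 8.96% of those tested, where 29.8% of all genes were lower and 24.5% higher. Magohb, which encodes a core protein of the exon junction complex, stood at 26.0 ± 4.74 CPM in the crypt and had no UMI among 1566224 at the tip. It was at least 13.6-fold lower there, with 3 UMIs over the group as the floor. Lsm5 and Lsm3, of the ring on the U6 small nuclear RNA, were lower by -2.92 (SE 0.78) and -2.78 (SE 0.58). Higher at the tip were Syf2, a protein that joins the active spliceosome (69.8 ± 22.6 and 33.7 ± 4.99 CPM, log2 change 1.37, SE 0.27), the helicase gene Dhx38 (1.25, SE 0.39) and Sart1 of the tri-snRNP (1.19, SE 0.28).

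Of 7 genes of kinases that phosphorylate SR proteins 4 were tested, and 3 were higher at the tip and none lower (24.5% of all genes were higher). The 7 together stood at 153, 221, 156, 190.3 and 138 CPM in the crypt and at 593, 233, 235, 199 and 130.2 CPM at the tip, so the sums overlapped, mouse 1 differed most and mouse 5 was lower at the tip. Clk1 stood at 43.7, 39.1, 32.6, 24.2 and 17.3 CPM in the crypt and at 225, 78.4, 73.9, 56.9 and 39.1 CPM at the tip, higher in 5 of 5 mice, with only the tip value of mouse 5 within the range of the crypt (log2 change 2.01, SE 0.42, adjusted p = 0.000488). Clk3 was at 19.7 ± 7.22 and 39.7 ± 14.7 CPM (1.38, SE 0.45) and Srpk1 at 58.3 ± 23.2 and 87.1 ± 56.2 CPM (1.04, SE 0.32). Of 38 further splicing regulators 30 were tested, with 15 lower and 5 higher, beside the same shares of all genes. Nono, a paraspeckle protein, fell from 88.0 ± 16.1 to 13.8 ± 16.2 CPM (-2.25, SE 0.44), and Elavl1, which stabilizes mRNAs, and Rbm10 were lower by -1.95 (SE 0.70) and -1.91 (SE 0.51). Son, a scaffold of nuclear speckles, rose from 94.8 ± 42.5 to 178 ± 96.6 CPM (1.38, SE 0.36), and Rbm5 and Mbnl2, both regulators of exon choice, rose by 1.35 (SE 0.38) and 1.15 (SE 0.40). Without mouse 3, 31 of the 3 lists together were called in place of 58.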

How the data were processed

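UMI counts of clumps (17162 wells) and single cells (16850 wells) of mouse jejunum were used. The authors sequenced MARS-seq plates, split reads with bcl2fastq (version 2.15.0.4 in the submitters' processing notes), aligned them to GRCm38 with STAR through zUMIs, and deposited whole-number counts of UMIs per gene and well, before their background subtraction. Empty wells are not named in the tables, so no background was subtracted here. Well barcodes recur on every plate by design (384 in each table), and no column is shared by the tables.

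The filters on clumps were a minimum of 200 genes, a mitochondrial share up to 30% and more than 500 UMIs (6004 passed). The 2% with the lowest landmark share were dropped. For each other clump, landmark levels were scaled by each gene's maximum over clumps. They were then correlated with membership of the crypt, mid-villus and tip landmark sets, and the highest correlation gave the zone. For cells the limits were 200 and 7000 UMIs, 150 and 1500 genes and a mitochondrial share of 40%, and those inside them were clustered with scanpy 1.11.5 (Leiden, resolution 0.1, igraph 0.11.9). No doublet caller was run. Counts were summed per mouse and group and tested with edgeR 4.0.16 in R 4.3.3 (TMM, filterByExpr, quasi-likelihood test, Benjamini-Hochberg over all genes, threshold 0.05), which was tested on simulated data. Landmark genes were left out of zone fits. DESeq2 1.42.0, other scalings and filters, left-out mice and a mouse block were alternatives. Scaling by total UMIs, and leaving out the tip sum of mouse 4 or the immune-like sum of mouse 1, were added after the data were seen. Floors cover counting error only.

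Zone sums of 1 animal deviated together: r was 0.168 to 0.551 in 15 pairs of zones and 0.103 to 0.406 in 10 pairs of single-cell zones. Between classes it was mixed, at -0.11 to 0.523 in 36 pairs, with 26 of them over 0.1. Mouse numbers pair the sums because they name the animal.

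The members and gene lists were chosen with earlier results of these data known. Named are the called members by absolute log2 change (up to 8 in each direction for tip against crypt clumps, 4 elsewhere), the 2 most abundant members per family, and the 3 called genes with the widest change in each direction in the other splicing lists. Other genes were named after their values were seen.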

Additional observations from a re-analysis of the deposited data

Results flagged for a closer look

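Over 93 groups of 4 or 5 sums, 12 had a highest or lowest value far from the rest. The rule flags about 1 in 20 independent groups by chance. These groups share genes and libraries, and some of their values rest on few UMIs, so no excess is read from the count. The immune-like sum of mouse 1, with 14 cells, was the lowest in 4 of them: 379.7 CPM of Hnrnp genes, 134 CPM of Snrp genes, 313 CPM of Srsf genes and 960.3 CPM of all members, against 2291, 712, 708 and 4422 CPM in the next lowest mouse. The enteroendocrine-like sum of mouse 1 held 77.8 CPM of Snrp genes, against 426 CPM in the next. In mid-villus clumps the Hnrnp sum of mouse 5 was lowest at 436 CPM, against 873 CPM in the next mouse.

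Single members stood out in mouse 4, with the highest crypt values of Hnrnpab (532 CPM) and Sf3b3 (69.4 CPM) and the highest tip values of Sf3b3 (28.4 CPM, 3 UMIs) and Snrpg (37.9 CPM, 4 UMIs). Snrpa1 was highest at the tip in mouse 1 (13.8 CPM, 3 UMIs), and Snrpe lowest in the crypt of mouse 5 (57.7 CPM).

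The clumps of mouse 6, sorted above 2n and outside the main comparisons, held 2538 CPM of the members in the crypt, 1321 CPM in the mid-villus and 900.0 CPM at the tip, from 671818, 363338 and 153334 UMIs.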

How the results depend on the processing

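Of the 35 members lower at the tip in clumps, those still tested (3 with thinned sums, 26 to 35 in the other alternatives) had no reversed call. Leaving out crypt clumps with a dividing-list UMI gave 18 calls at the tip, 11 in the mid-villus and 17 in the other splicing lists, with log2 ratios of the summed Srsf, Snrp, Sf3, Hnrnp and all members of -0.65, -1.70, -0.46, -0.92 and -0.91. Sums thinned to the smallest gave 2, 4 and 0 calls for tip against crypt, mid-villus against crypt and tip against mid-villus, 3 in single cells and 4 in the other lists, with few genes left to test, and no testable member in the cell classes. Zones by eta quintile, with the middle quintile in place of the mid-villus, gave 22 calls (all lower) for tip against that quintile and 9 in single cells. The ratios were then -1.89 (Srsf), -3.47 (Snrp), -2.02 (Hnrnp) and -2.15 (all). Without clumps of secretory, Paneth or immune UMIs the ratios were -1.36 (Hnrnp) and -1.32 (all) and the other lists had 32 calls, and pairs alone gave 33 there and 0 for tip against mid-villus. Divided by TMM factors, the ratios were -1.23 (Hnrnp) and -1.26 (all). Total-UMI scaling gave 0 calls for tip against mid-villus and for goblet-like cells, 3 for tuft-like, 21 for enteroendocrine-like and 31 for immune-like cells, and turned the sign of Srsf5 in single cells (-0.24). No filter on low counts gave 0 for tip against mid-villus and 0 for enteroendocrine-like cells. Enteroendocrine-like calls were 6 with DESeq2's size factors, 4 with DESeq2, 2 without mitochondrial genes, 2 over 500 UMIs, 3 with classes from marker sums and 2 without the immune-like sum of mouse 1. Immune-like calls were 21 with DESeq2, 21 with marker sums (20 higher and 1 lower) and 23 without that sum, and goblet-like calls 0 with DESeq2 and 0 with marker sums.

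With the mouse as a block, calls were 5 for tip against mid-villus, 2 for goblet-like, 7 for enteroendocrine-like and 23 for immune-like cells, and the block raised tip against crypt from 36 to 42 and mid-villus against crypt from 31 to 40. Leaving out each mouse gave 0 to 1 calls for tip against mid-villus, 15 to 23 in single enterocyte-like cells, 0 to 1 in goblet-like, 0 to 4 in enteroendocrine-like and 1 to 33 in immune-like cells, and 31 to 61 in the other lists. Of 479 values of single genes under alternatives, 437 kept their side of the threshold (Sf3b1 and Sf3b2, not called, changed sign among these, from -0.31 to 0.59 and from -0.32 to 0.45), 41 lost the call and in 1 the sign of a called gene turned. Depth limits the cell classes most, where 1 UMI is worth up to 88.5 CPM (enteroendocrine-like, mouse 4), and in clumps the tip, where it is worth up to 13.0 CPM (mouse 5). The cause of these changes was not tested.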

Other observations

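In single enterocyte-like cells, 4 of the 4 tested kinases of SR proteins were called higher at the tip, where 29.9% of all genes were. The calls use TMM factors of 1.24 to 1.48 in crypt and 0.501 to 0.874 in tip cells, so the log2 changes lie above those of the CPM, and the CPM of each of the 4 overlapped between zones. Clk1 stood at 68.0, 24.9 and 58.4 CPM in the crypt and at 50.9, 74.3, 68.8 and 87.0 CPM at the tip. Srpk1 stood at 49.999 ± 9.47 CPM (n = 4) at the tip and 36.3 ± 14.7 CPM (n = 3) in the crypt, a log2 change of 1.57 (SE 0.34). Clk3 stood at 16.4 ± 4.85 and 6.74 ± 6.28 CPM (1.82, SE 0.54). The paraspeckle gene Nono was lower, at 4.04 ± 3.90 and 57.4 ± 24.5 CPM (-3.02, SE 0.50), and the speckle gene Son was higher, at 120.1 ± 17.1 and 70.9 ± 3.36 CPM (1.76, SE 0.30).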
